A study of Mus musculus with 96 samples.

Results

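Nuclei of the 2N gate of the mouse line KPC1199EGFP were divided by their copies of chromosome 1. All 47 single nuclei of this gate were used, of 96 libraries in all. The groups were chosen by the measured ratio of the median bin of chromosome 1 to the median bin of chromosome 4. In 30 nuclei this ratio was at least 1.25, and these are called trisomic for chromosome 1. In 17 nuclei it was below 1.25, and these are called disomic. KPC1199EGFP is a pancreatic cancer line of the C57BL/6 background that expresses EGFP, a green fluorescent protein. The cells were grown attached, without treatment, and taken at passage 9, and their nuclei were sorted by DNA content after staining with DAPI, a DNA-binding dye. Trisomic and disomic nuclei came from the same culture and the same gate and differ in no label but their number. The other libraries were 35 nuclei of a 2N+ gate with more DNA, 12 nuclei of a 4N gate and 2 bulk samples.

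Cancer cells gain and lose whole chromosomes when chromosomes are missegregated at mitosis, and gain or lose parts of chromosomes after breaks. A change that happens in a dividing cell is passed to its daughters, so nuclei of a growing line can carry different sets of changes. Sequencing of single nuclei reads these sets directly, because the number of reads in a bin of the genome follows its copies. Chromosome 1 of the mouse carries, among others, Bcl2, which blocks apoptosis, and Aspm, Cenpf and Nek2, which act at the spindle, the kinetochore and the centrosome.

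Each nucleus has a segmented ratio for each of 4906 bins, 486 kb wide at the median, and its read depth is unknown. Copies were obtained by setting the median bin of chromosomes 7, 9, 10 and 13 to 2 copies in each nucleus, which leaves chromosomes 1 and 4 out of the scale. A nucleus was counted as reaching 3 copies from 2.5 copies upwards. All nuclei come from 1 culture, so each group is 1 sample and no test was run. SDs describe the spread of nuclei, and exact Clopper-Pearson 95% intervals of shares cover counting error only. In 2 trisomic nuclei the copies lay farther from whole numbers than in the rest, with a mean distance of 0.143 copies in nucleus 7 and 0.126 in nucleus 24. The medians of this distance were 0.0501 copies in trisomic nuclei and 0.0453 in disomic nuclei.

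The ratio of chromosome 1 to chromosome 4, which chose the groups, ran from 1.40 to 1.61 in trisomic nuclei (median 1.48) and from 0.986 to 1.08 in disomic nuclei (median 1.04). Just inside the threshold was trisomic nucleus 24, at 1.40, and just outside it was disomic nucleus 46, at 1.08. No nucleus lay between these values. Beyond its start, chromosome 1 had a mean of 2.93 ± 0.0495 copies in trisomic nuclei and 2.05 ± 0.0455 in disomic nuclei (SD, n = 30 and 17). Disomic nucleus 44 was of a mixed kind. In that nucleus 112 of 275 bins beyond the start of chromosome 1, the first at chr1:98286358 in mm9, had a mean of 2.89 copies, and the other bins had 2.02. In the other 16 disomic nuclei 0 of these bins reached 2.5 copies. Chromosome 4, which carries the tumour suppressor gene Cdkn2a, was at 1.98 ± 0.0381 copies in trisomic nuclei and 1.98 ± 0.0407 in disomic nuclei.

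**Figure D1:**
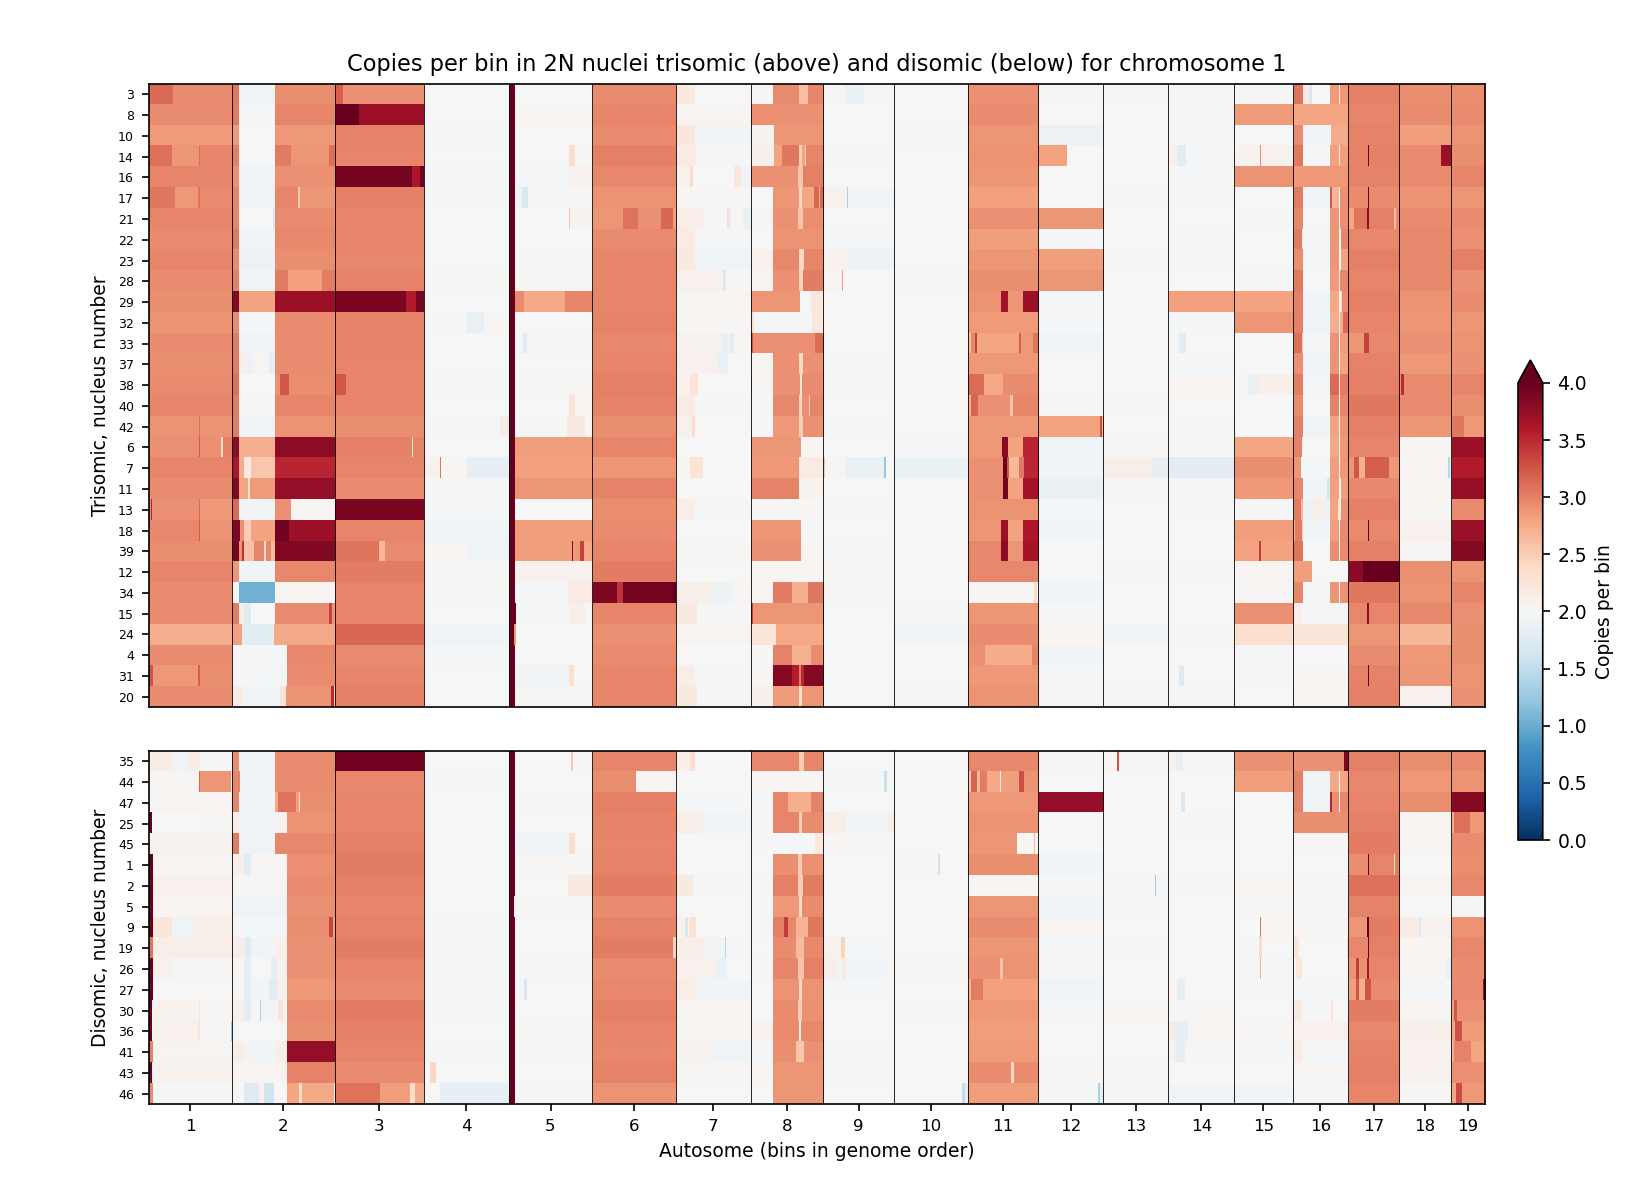
Copies in each autosomal bin (columns, in genome order, with lines between chromosomes) in each 2N nucleus (rows, by nucleus number), for 30 trisomic nuclei above and 17 disomic nuclei below; colour gives copies, and values above 4 take the darkest red. Rows are ordered by how many of 6 regions of chromosomes 2, 16 and 18 were gained. Chromosomes 4, 7, 9, 10 and 13 are at 2 copies in both groups, while parts of chromosomes 2 and 16 and the whole of chromosome 18 are red in most trisomic nuclei and pale in most disomic nuclei.

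The question was which other autosomes differ between nuclei with and without the third copy of chromosome 1. Gains on chromosomes 2, 16 and 18 were found mostly in nuclei that were trisomic for chromosome 1. A bin was called when the mean copies of both groups differed by at least 0.25. On chromosomes 2, 3 and 5 to 19, 433 of 4053 bins, or 10.7%, were called higher in trisomic nuclei, and 0 bins, or 0%, were called lower. The called bins lay on 5 chromosomes. All 178 bins of chromosome 18 were called, 91 of 192 on chromosome 16, 75 of 251 on chromosome 8, 67 of 358 on chromosome 2 and 22 of 291 on chromosome 5. The other 12 autosomes had 2783 bins and 0 called ones, with differences from -0.08 to 0.24 copies. On chromosome 1, whose copies set the groups, 275 of 288 bins (95.5%) were higher and 13 (4.51%) were lower in trisomic nuclei.

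**Figure D2:**
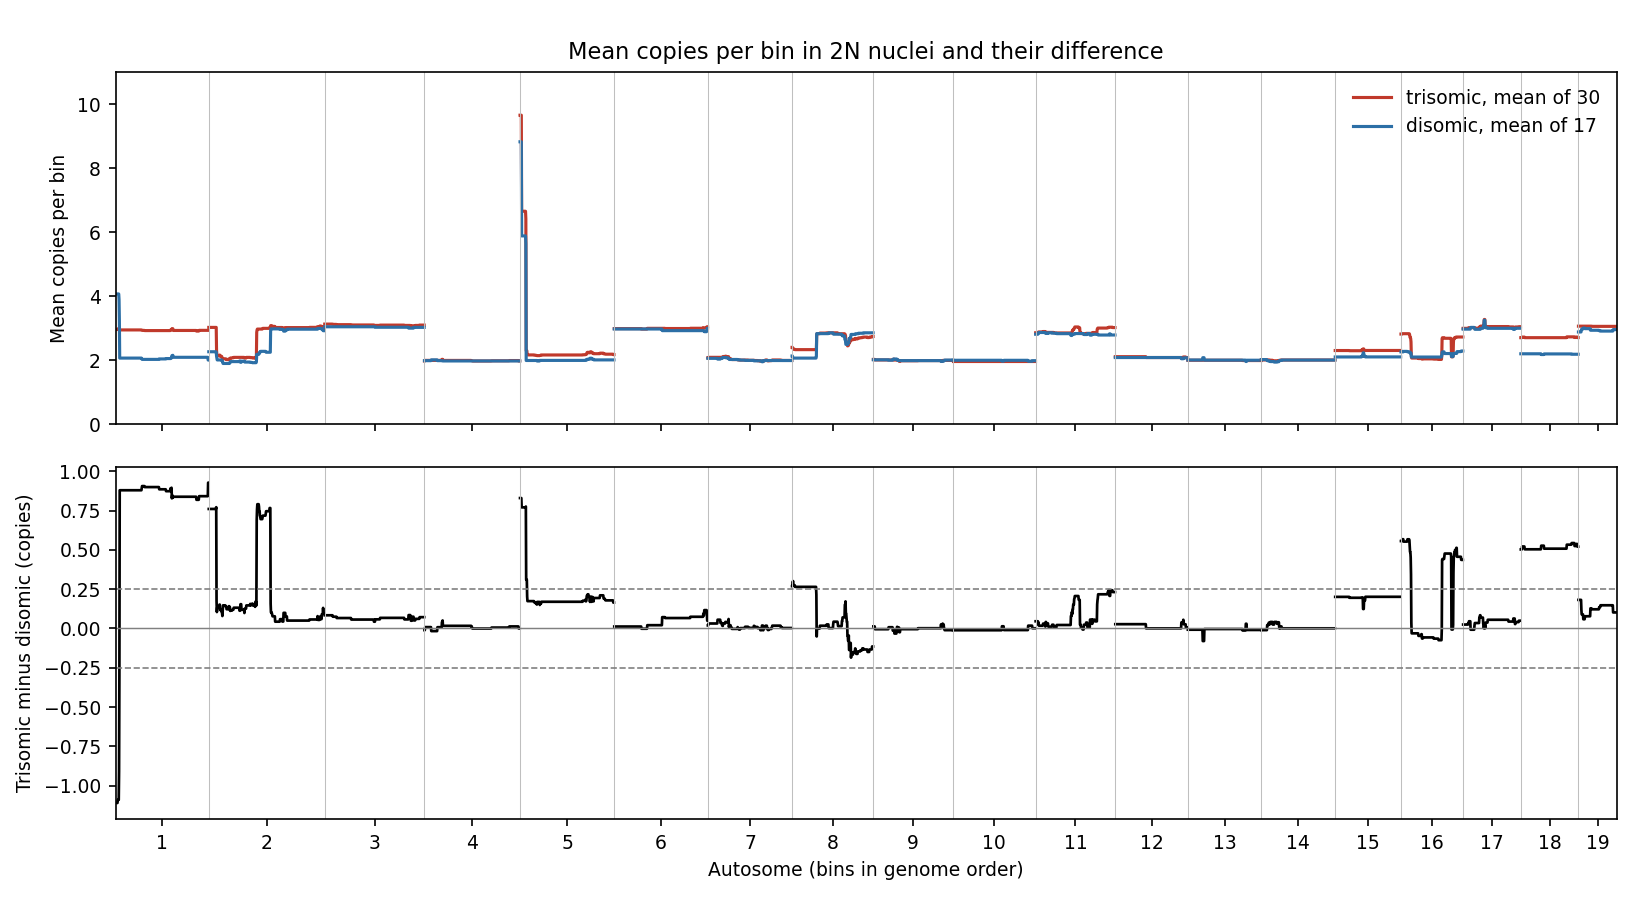
Mean copies per bin (above) in trisomic nuclei (red, n = 30) and disomic nuclei (blue, n = 17), and the difference, trisomic minus disomic (below), along the autosomes in genome order; dashed lines mark differences of 0.25 copies in either direction. Outside chromosome 1 the difference passes 0.25 copies at 2 blocks of chromosome 2, the starts of chromosomes 5 and 8, both ends of chromosome 16 and the whole of chromosome 18.

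Chromosome 2, which carries the genes of the mitotic kinases Bub1b and Aurka, had the largest difference of a whole autosome other than chromosome 1, with means of 2.94 ± 0.515 copies in trisomic nuclei and 2.28 ± 0.386 in disomic nuclei. Called bins formed blocks with other states around them, so chromosome 2 is described in 4 parts (mm9 positions, numbered from its start in the plots). The first, chr2:1-14885853, had its lowest, median and highest values at 1.96, 3.02 and 3.92 copies in trisomic nuclei and at 1.93, 2.08 and 3.04 in disomic nuclei. It reached 3 copies in 26 of 30 trisomic nuclei (86.7%, 69.3 to 96.2) and in 4 of 17 disomic nuclei (23.5%, 6.81 to 49.9). The intervals were apart, although the groups overlapped: 4 trisomic nuclei were low and 4 disomic nuclei were high. The inner part, chr2:75743671-97908370, was gained in the same nuclei as the first in 47 of 47 cases. Its means were 3.0 ± 0.502 copies in trisomic nuclei and 2.25 ± 0.425 in disomic nuclei.

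The parts of chromosome 2 between and after these blocks differed less. The part between them, chr2:14885854-75743670, had means of 2.09 ± 0.393 copies in trisomic nuclei and 1.95 ± 0.0655 in disomic nuclei, and was at 3 copies in 6 of 30 and 0 of 17 nuclei. The distal part, from 97908371 to the end, had means of 3.02 ± 0.423 copies in trisomic nuclei and 2.97 ± 0.209 in disomic nuclei. It reached 3 copies in 28 of 30 and 17 of 17 nuclei. The chromosome thus changed state at different places in most nuclei of each group. A rise of at least 0.5 copies at 97908371 was found in 3 of 30 trisomic nuclei (10%, 2.11 to 26.5) and in 13 of 17 disomic nuclei (76.5%, 50.1 to 93.2). A rise at 75743671 was found in 26 of 30 trisomic nuclei (86.7%) and in 4 of 17 disomic nuclei (23.5%). Every nucleus but trisomic nuclei 13 and 34 had gained the distal part, and the inner border of that gain lay nearer to the chromosome start in most trisomic nuclei.

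Chromosome 16, which carries Runx1, a transcription factor of blood development, was called higher at both ends and not in its middle. Its first part, chr16:1-19135648, had values from 1.99 to 3.10 copies in trisomic nuclei (median 2.97) and from 1.96 to 3.01 in disomic nuclei (median 2.09). It was at 3 copies in 25 of 30 trisomic nuclei (83.3%, 65.3 to 94.4) and in 4 of 17 disomic nuclei (23.5%, 6.81 to 49.9). The middle, chr16:19135649-66290027, had means of 2.04 ± 0.223 copies in trisomic nuclei and 2.10 ± 0.310 in disomic nuclei. The next part, chr16:66290028-80661653, and the last, from 83740532 to the end, each reached 3 copies in 24 of 30 trisomic nuclei (80%, 61.4 to 92.3) and 4 of 17 disomic nuclei (23.5%). Between them lay 6 bins, chr16:80661654-83740531, with means of 2.11 ± 0.253 copies in trisomic nuclei and 2.12 ± 0.304 in disomic nuclei. The fall out of the first part, at 19135649, was found in 20 of 30 trisomic nuclei (66.7%, 47.2 to 82.7) and in 2 of 17 disomic nuclei (11.8%, 1.46 to 36.4). So most gained nuclei of the trisomic group shared the same interrupted pattern. Of the disomic nuclei, 2 (25 and 35) had gained the whole of chromosome 16 and 2 (44 and 47) had the interrupted form.

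Chromosome 18, which carries Smad4, a transducer of TGF-beta signals that is often inactivated in pancreatic cancer, differed as a whole. The values in trisomic nuclei ran from 2.02 to 2.96 copies (median 2.90), and those in disomic nuclei from 1.97 to 2.93 (median 2.06). Chromosome 18 was at 3 copies in 23 of 30 trisomic nuclei (76.7%, 57.7 to 90.1) and in 3 of 17 disomic nuclei (17.6%, 3.80 to 43.4), with intervals apart. Its bins differed by 0.50 to 0.54 copies. The 7 trisomic nuclei with 2 copies of chromosome 18 were nuclei 6, 7, 11, 13, 18, 20 and 39, and the 3 disomic nuclei with 3 copies were nuclei 35, 44 and 47. Of these 7 trisomic nuclei, 5 belong to a set with 4 copies of chromosome 2 that is described further on.

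**Figure D3:**
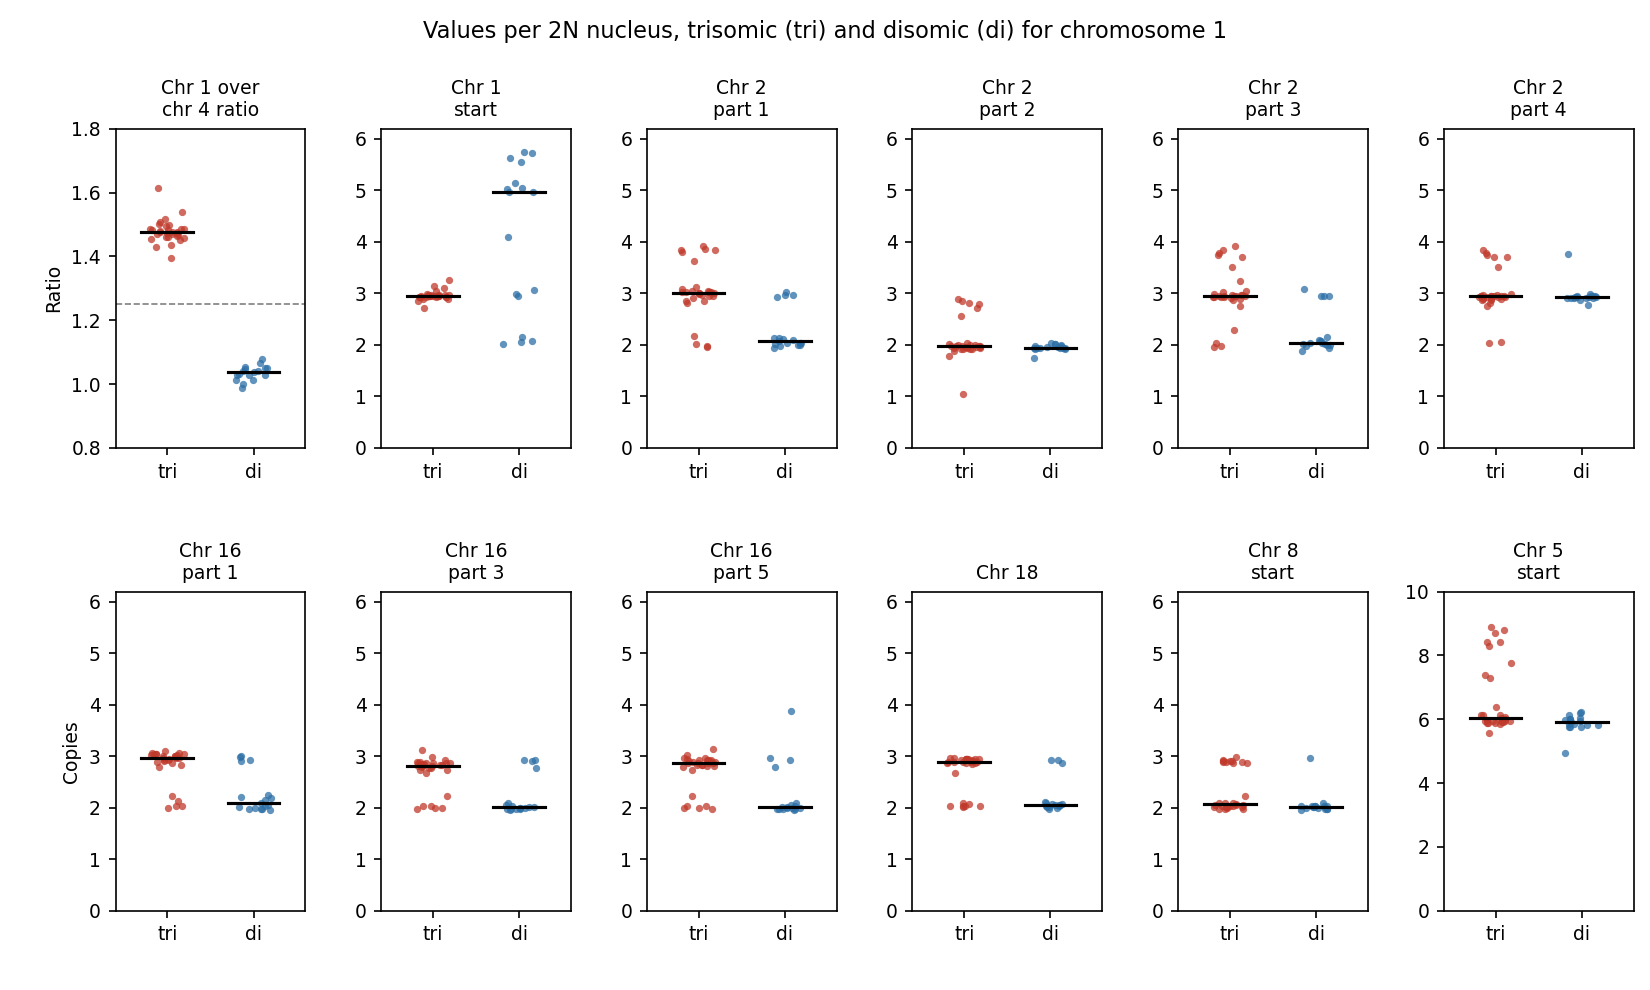
Value of each 2N nucleus (points) and group median (black line) for the ratio of chromosome 1 to chromosome 4 and for copies of 11 regions, trisomic nuclei on the left (red, n = 30) and disomic nuclei on the right (blue, n = 17) in each panel; the dashed line is the ratio of 1.25 that chose the groups, and the scale for the start of chromosome 5 runs to 10. Values cluster near whole copies, the groups overlap in every region except the ratio that defines them, and the start of chromosome 1 is highest in disomic nuclei.

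The start of chromosome 8, chr8:1-43134033, differed by 0.26 copies, just past the call. It had means of 2.33 ± 0.417 copies in trisomic nuclei and 2.07 ± 0.232 in disomic nuclei. It was at 3 copies in 10 of 30 trisomic nuclei (33.3%, 17.3 to 52.8) and in 1 of 17 disomic nuclei (5.88%, 0.149 to 28.7), and these intervals overlapped. The rest of chromosome 8 reached 3 copies in 27 of 30 and 15 of 17 nuclei. Chromosome 15, home of the growth-promoting transcription factor Myc, had means of 2.31 ± 0.401 copies in trisomic nuclei and 2.11 ± 0.290 in disomic nuclei. It was at 3 copies in 10 of 30 trisomic nuclei (33.3%) and 2 of 17 disomic nuclei (11.8%), again with overlapping intervals. Among trisomic nuclei the gains of the start of chromosome 8 and of chromosome 15 fell in the same 9 nuclei, with 1 nucleus gained at chromosome 8 alone and 1 at chromosome 15 alone.

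Some of these differences came from a small set of trisomic nuclei. In 6 of 30 trisomic nuclei, numbers 6, 7, 11, 18, 29 and 39, and in 0 of 17 disomic nuclei, chromosome 2 was at 4 copies by its median. These 6 nuclei were also the only ones of the gate with chromosome 5 at 3 copies, from 2.76 to 2.88 copies beyond its start, where the other 24 trisomic nuclei had at most 2.08 copies and disomic nuclei at most 2.03. All 6 had 3 copies of chromosome 15 and of the start of chromosome 8. In the distal bins of chromosome 11, the chromosome of Trp53, that were higher in trisomic nuclei by at least 0.15 copies (77 bins), they had 3.51 to 3.73 copies. The other trisomic nuclei had 2.02 to 2.97 copies there, and the disomic nuclei 2.04 to 2.96. These bins were picked by the difference between the groups in these same nuclei, so their values are a description and no separate support. Of the 6 nuclei, 5 had chromosome 19 at 4 copies and chromosome 18 at 2. The exception was nucleus 29, with 2.95 copies of chromosome 19 and 2.90 of chromosome 18.

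The start of chromosome 5, chr5:1-15924369, was above 4 copies in all 47 nuclei. It had its lowest, median and highest values at 5.58, 6.03 and 8.88 copies in trisomic nuclei and at 4.94, 5.93 and 6.23 in disomic nuclei. The medians were close, and the difference of the means, 0.77 copies, came from the upper end of the trisomic group. The 6 nuclei with 4 copies of chromosome 2 had 8.30 to 8.88 copies, and trisomic nuclei 15, 24 and 40 had 7.76, 7.38 and 7.31. Without those 6 nuclei the difference was 0.29 copies at the start of chromosome 5 and 0.12 at the start of chromosome 8. It was then 0.07 copies for chromosome 15 and 0.0038 for chromosome 5 as a whole. Chromosome 18 went the other way, with a difference of 0.64 copies and 91.7% of trisomic nuclei at 3 copies. The first and inner parts of chromosome 2 kept differences of 0.56 copies each.

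The other 12 autosomes (3, 6, 7, 9 to 15, 17 and 19) had no called bin, and 0 of the intervals of their shares at 3 copies or more were apart. Chromosome 19 had means of 3.06 ± 0.305 copies in trisomic nuclei and 2.91 ± 0.324 in disomic nuclei, and was at 4 copies in 5 of 30 and 1 of 17 nuclei. Chromosome 3 reached 3 copies in 30 of 30 and 17 of 17 nuclei, and at 4 in 4 trisomic nuclei and 1 disomic nucleus. Chromosome 6 had means of 2.99 ± 0.178 copies in trisomic nuclei and 2.98 ± 0.0329 in disomic nuclei. Chromosome 11 had means of 2.86 ± 0.165 copies in trisomic nuclei and 2.83 ± 0.208 in disomic nuclei. Gains of chromosomes 3, 6, 11, 17 and 19 were thus present with and without the third copy of chromosome 1. Chromosome X was at 1.19 ± 0.318 copies in trisomic nuclei and 1.05 ± 0.0185 in disomic nuclei, and was at 2 copies in 4 trisomic nuclei (8, 11, 15 and 18) and 0 disomic nuclei.

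The start of chromosome 1 ran against the rest of the chromosome. This region, chr1:3559438-15332557, held 13 bins, and since it belongs to the chromosome that chose the groups its values are a description. It had 2.72 to 3.25 copies in trisomic nuclei (median 2.95) and 2.02 to 5.74 in disomic nuclei (median 4.97). Of the disomic nuclei, 9 had 4.97 to 5.74 copies and nucleus 26 had 4.11 copies. Nuclei 19, 41 and 46 had 3.07, 2.99 and 2.94, and nuclei 35, 44, 45 and 47 had 2.02 to 2.15. No trisomic nucleus reached 4 copies. A fall of at least 0.5 copies out of this start was found near 15332558 in 13 of 17 disomic nuclei (76.5%, 50.1 to 93.2) and in 1 of 30 trisomic nuclei (3.33%, 0.0844 to 17.2). The largest fall lay at 15332558 in 9 of these disomic nuclei, at 14785729 in 3 and at 9656255 in nucleus 36. Sox17, a transcription factor of endoderm, comes 24th among the 1204 protein-coding genes of chromosome 1 in the order of GRCm38.p6, and whether it lies in these bins was not determined.

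Over both groups, the gains outside chromosome 1 often came together in the same nuclei, less so for chromosome 18. The 6 regions whose intervals were apart were counted in each nucleus: the first and inner parts of chromosome 2, the 3 called parts of chromosome 16, and chromosome 18. Of 30 trisomic nuclei, 17 had gained all 6 regions and 1 had gained 0. Of 17 disomic nuclei, 3 had gained all 6 and 12 had gained 0. The state of a region was the same as that of chromosome 1 (both gained or both not) in 39 of 47 nuclei for both parts of chromosome 2 and in 38 for the first part of chromosome 16. It was the same in 37 of 47 nuclei for the other parts of chromosome 16 and for chromosome 18, against 26 of 47 for the start of chromosome 8. The first parts of chromosomes 2 and 16 shared their state in 42 of 47 nuclei, more than either shared with chromosome 1. Chromosome 18 shared its state with the first part of chromosome 2 in 37 of 47 nuclei and with that of chromosome 16 in 36. Among the 30 trisomic nuclei these last counts were 21 and 20. In that group the first part of chromosome 2 was gained in 26 nuclei, that of chromosome 16 in 25 and chromosome 18 in 23. With shares this high many matches arise without any link. The counts therefore do not show chromosome 18 gained together with the others inside the trisomic group. Parts of the same chromosome shared their state in at least 46 of 47 nuclei, so the 6 regions are not 6 separate gains. These counts were used to find the regions, so they describe them and support nothing further.

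**Figure D4:**
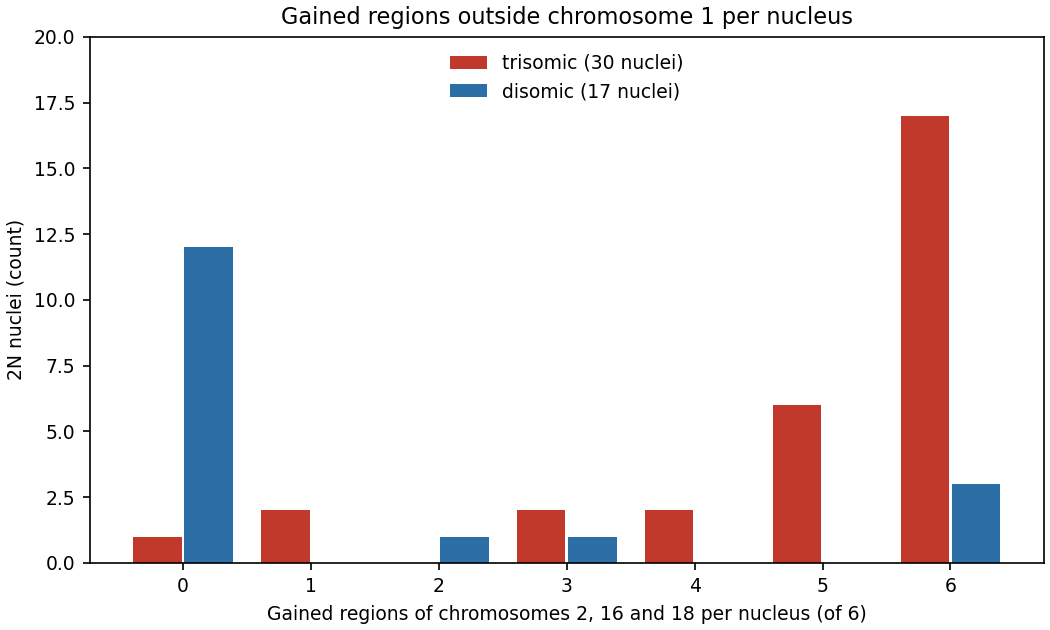
Number of 2N nuclei (bars) by how many of 6 regions of chromosomes 2, 16 and 18 were at 3 copies or more, for 30 trisomic nuclei (red, left in each pair) and 17 disomic nuclei (blue, right). Trisomic nuclei pile up at 6 regions (17 nuclei) and disomic nuclei at 0 regions (12 nuclei).

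The disomic nuclei split along the start of chromosome 1. The 13 disomic nuclei with 3 copies or more there had gained 0 of the 6 regions in 12 cases, and the other, nucleus 25, had gained the 3 parts of chromosome 16. Of the 4 disomic nuclei with 2 copies there, nuclei 35, 44 and 47 had gained all 6 regions and nucleus 45 had gained both parts of chromosome 2. The first part of chromosome 2 was thus gained in 0 of 13 and in 4 of 4 of these disomic nuclei. In the 13 it had at most 2.13 copies, and in the 4 at least 2.93.

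Some trisomic nuclei lacked the gains that were common in their group. Nucleus 20 had gained 0 of the 6 regions, with 2.17 and 2.28 copies of the first and inner parts of chromosome 2, 2.04 of the first part of chromosome 16 and 2.08 of chromosome 18. Nuclei 4 and 31 had gained chromosome 18 alone, with 2.87 and 2.88 copies. Nuclei 15 and 24 had gained both parts of chromosome 2 and chromosome 18 but no part of chromosome 16. Nucleus 34 had gained the parts of chromosome 16 and chromosome 18, had 2.02 copies of the first part of chromosome 2, and had only 1.04 copies of the part after it, which was the lowest value of any region in the gate. Trisomy of chromosome 1 was thus found without each of the other gains.

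Taken over chromosomes 2 to 19, the rounded copies formed 14 different sets in trisomic nuclei and 8 in disomic nuclei, and 3 of these sets were found in both groups. The most frequent set was shared by 9 of 30 trisomic nuclei and another by 10 of 17 disomic nuclei. By the median bin of each chromosome, these sets had chromosomes 3, 6, 8, 11, 17 and 19 at 3 copies in common. They differed in the medians of chromosomes 2 and 18, which rounded to 3 copies in the trisomic set and to 2 in the disomic one. Such medians do not show parts of a chromosome. Trisomic nucleus 20 had the set of the 10 disomic nuclei. Disomic nucleus 44 shared its set with trisomic nucleus 32, and disomic nucleus 35 shared its set with trisomic nuclei 8 and 16. With the parts of chromosomes 2, 8, 16 and 18 counted separately, 2 sets were found in both groups. They were the set of nucleus 20 with 9 disomic nuclei and that of nuclei 32 and 44. Nucleus 35 then matched no trisomic nucleus. It had 3.88 copies of the last part of chromosome 16, and nuclei 8 and 16 had 2.79 and 2.87. With parts counted, the most frequent sets were those of 7 trisomic and 9 disomic nuclei. These differed in chromosome 18, in the first and inner parts of chromosome 2 and in the 3 called parts of chromosome 16. Both sets had 2 copies between the first and inner parts of chromosome 2, and 3 copies of its distal part.

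Distances between nuclei were compared bin by bin. For each pair, the share of bins on chromosomes 2, 3 and 5 to 19 that differed by at least 0.5 copies was counted. The medians were 17.6% within trisomic nuclei (435 pairs) and 6.48% within disomic nuclei (136 pairs), and 14.9% between the groups (510 pairs). By these medians trisomic nuclei differed no less among themselves than from disomic nuclei. Nuclei 3 and 37, both trisomic, differed in 0% of bins. The nearest other nucleus was of the same group for 26 of 30 trisomic nuclei and 14 of 17 disomic nuclei. The exceptions were trisomic nuclei 13, 20, 32 and 34 and disomic nuclei 35, 44 and 47. Group size alone favours trisomic neighbours, since 30 of the 47 nuclei were trisomic and 17 were disomic. Some margins were narrow: disomic nucleus 45 differed from the nearest disomic nuclei in 7.87% of bins and from the nearest trisomic nucleus in 7.92%. Nucleus 35 differed from trisomic nucleus 8 in 0.716% of bins and from the nearest disomic nucleus in 20.3%. Nucleus 20 differed from disomic nucleus 30 in 0.543% of bins and from the nearest trisomic nucleus in 4.86%.

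Over chromosomes 2 to 19, trisomic nuclei had a mean of 2.46 ± 0.0850 copies and disomic nuclei 2.37 ± 0.0734. The number of autosomes other than chromosome 1 at 3 copies or more had a median of 8 in trisomic nuclei (5 to 11) and of 6 in disomic nuclei (5 to 10). Changes of value inside chromosomes, chromosome 1 left out, had medians of 16.5 in trisomic nuclei (5 to 34) and 15 in disomic nuclei (6 to 27). Of these, steps of at least 0.5 copies had medians of 10 and 7. The ranges of both groups overlapped for each of these measures.

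The same ratio divided 35 nuclei of the 2N+ gate, none of which had been used to find the regions, into 28 nuclei at or above 1.25, called trisomic here, and 7 disomic nuclei. Nucleus 20 of that gate, among the 28, had a ratio of 1.87 and 3.78 copies of chromosome 1. The first part of chromosome 2 was gained in 28 of 28 trisomic nuclei (100%, 87.7 to 100) and in 4 of 7 disomic nuclei (57.1%, 18.4 to 90.1). Chromosome 18 was gained in 25 of 28 trisomic nuclei (89.3%, 71.8 to 97.7) and 4 of 7 disomic nuclei. The first part of chromosome 16 was gained in 24 of 28 trisomic nuclei (85.7%, 67.3 to 95.97) and 3 of 7 disomic nuclei (42.9%, 9.90 to 81.6). Its middle was gained as well in this gate, in 19 of 28 trisomic nuclei and 3 of 7 disomic nuclei. The fall at 19135649 was found in 4 of 28 trisomic nuclei and 0 of 7 disomic nuclei of the 2N+ gate. Shares were higher in trisomic nuclei for all 7 regions compared, and with 7 disomic nuclei all their intervals overlapped. The mean difference was 0.62 copies for the first part of chromosome 2, 0.43 for chromosome 18 and 0.56 for the first part of chromosome 16. The start of chromosome 5 had the opposite sign, with means of 6.61 ± 1.10 copies in trisomic nuclei and 7.04 ± 1.06 in disomic nuclei. Of the 7 disomic nuclei, 5 had 3 copies or more at the start of chromosome 1, and of these 3 had gained 0 of the 6 regions and 2 had gained all 6.

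**Figure D5:**
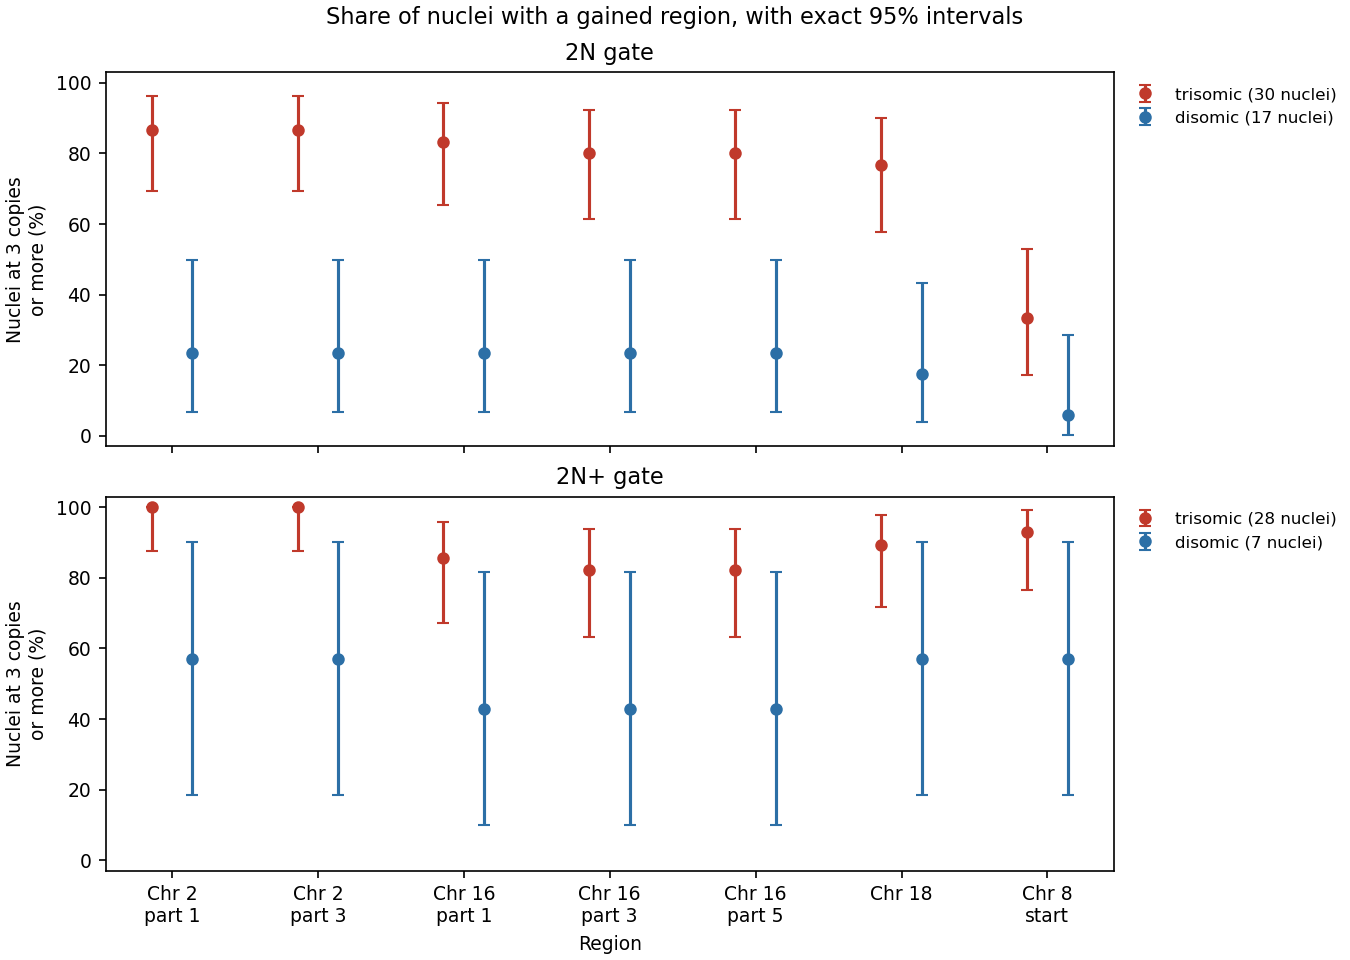
Share of nuclei at 3 copies or more (points) with exact 95% intervals (bars, counting error only) for 7 regions in the 2N gate (above, 30 trisomic nuclei in red and 17 disomic nuclei in blue) and in the 2N+ gate (below, 28 and 7 nuclei), trisomic on the left in each pair. In the 2N gate the intervals are apart for 6 regions and overlap for the start of chromosome 8; in the 2N+ gate they overlap for all 7.

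In the 4N gate, 11 nuclei were at or above the ratio and 1 nucleus, number 10, was below it, at 1.03. That nucleus had 5.78 copies at the start of chromosome 1 and 0 of the 6 regions gained. The 11 others had the first part of chromosome 2 at 3 copies or more in 11 cases, and chromosome 18 in 4. The ratio of 6 of these 11 nuclei lay between 1.25 and 1.31, at the edge of the threshold, so the name trisomic describes them less well than the 2N nuclei.

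The bulk library of the 2N gate has no replicate and was set against the nuclei of its gate. Its ratio of chromosome 1 to chromosome 4 was 1.23, against a mean of 1.32 ± 0.218 over the 47 nuclei. It had 2.45 copies of chromosome 1 beyond its start, against 2.61 ± 0.433 over nuclei, and 2.404 copies of chromosome 18, against 2.52 ± 0.435. The first part of chromosome 2 had 2.75 copies in the bulk library and 2.75 ± 0.606 over nuclei. The start of chromosome 1 had 3.45 copies in the bulk library and 3.36 ± 1.02 over nuclei. These 5 values lay between the means of trisomic and disomic nuclei, and some others did not. Chromosome 8 beyond its start had 2.93 copies in the bulk library, against means of 2.85 in trisomic and 2.83 in disomic nuclei. The 6 bins inside the end of chromosome 16 had 2.46 copies in the bulk library and means of 2.11 in trisomic nuclei and 2.12 in disomic nuclei. The parts on both sides of them had the same 2.46 copies in the bulk library. Its segments thus did not resolve these bins, and the value is that of the parts around them.

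The titles number the libraries, and nothing says that these numbers mark batches. Both groups were found in each of 4 stretches of library numbers, with 8 trisomic and 4 disomic nuclei in the first, 11 and 1 in the second, 6 and 6 in the third and 5 and 6 in the last. The median number of gained regions among the 6 was 5, 6, 6 and 6 in trisomic nuclei of these stretches, and 0, 0, 0 and 1 in disomic nuclei. The first part of chromosome 2 was gained in 0 of 4, 0 of 1, 1 of 6 and 3 of 6 disomic nuclei. In trisomic nuclei it was gained in 7 of 8, 10 of 11, 4 of 6 and 5 of 5. The disomic nuclei with this gain thus had late library numbers. The 6 regions were chosen on these same nuclei, and the second stretch holds 1 disomic nucleus, so these values are a description. The part of library order in the results was not tested.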

How the data were processed

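Single nuclei and bulk DNA were amplified with the SeqXE kit and sequenced, per the labels' protocols. Per the submitters' processing notes, the tool was Bowtie 1.0 and the build mm9. The sources used here do not give how bins, correction and segments were made. The authors deposited linear ratios, each library's mean over bins lying between 0.994 and 1.09, and are equal over long runs of bins. They are not counts, although the table is named so, so depth, bin noise and floors could not be had, and changes shorter than a segment are hidden.

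Copies are 2 times the ratio over the median bin of chromosomes 7, 9, 10 and 13. A chromosome or region is the median over its bins, and 3 bins were left out because their median ratio lay outside 0.25 to 4. Runs of at least 5 called bins made the regions, and a step was matched within a window of 3 bins. Named are the 5 autosomes with the largest difference, every called region and, from a list of 36 genes, some by their chromosome in GRCm38.p6, whose coordinates were not used. The members, lists and regions were chosen with earlier results of these data known. The split and the calls were tested on simulated data. Alternatives changed the scale, split, summary, call, bins, gate and nuclei used. The tools were scipy 1.17.1, matplotlib 3.10.9, pandas 2.3.3 and numpy 2.4.6 under Python 3.11.15.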

Additional observations from a re-analysis of the deposited data

Results flagged for a closer look

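Among the 6 trisomic nuclei with 4 copies of chromosome 2, nucleus 29 stood far from the other 5 on 2 chromosomes. It had 2.90 copies of chromosome 18, where the others had 2.02 to 2.09, and 2.95 copies of chromosome 19, where the other 5 were at 4 copies by rounding. Chance alone sets a sample apart by this measure in about 1 of 20 groups of normally distributed values. Copies cluster near whole numbers instead, so a single nucleus in another state is readily set apart. The screen also covered other called regions and the disomic nuclei of the 2N+ gate, which adds to the flags that arise by chance. The cause was not tested.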

How the results depend on the processing

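Of 378 alternative values for 36 results, 341 kept their direction and moved by less than 1 SD over nuclei, their interval or 1.5 times, 35 moved more and 2 reversed. The other scales of copies, the mean over bins, rounding at 2.4 and 2.6 copies, all bins, and a call at 0.5 copies moved none. Splits at 1.2 and 1.3 gave the same 2N groups, because no ratio lay between 1.08 and 1.40, so they could move none. Leaving out nuclei of residual above 0.15 removed 0 nuclei and could move none either. The 32 values of each of these settings repeat the main values and are counted among the 341. Leaving out nuclei of residual above 0.1 removed 2. This last setting and the one without nuclei with 4 copies of chromosome 2 were chosen after seeing the data. Without those 6 nuclei, the share of trisomic nuclei at 3 copies was 16.7% for the start of chromosome 8, 91.7% for chromosome 18, 0% for chromosome 5 and 16.7% for chromosome 15. These moves follow from which nuclei were left out. A call at 0.15 copies gave 1004 bins higher and 18 lower, and a difference of 25 points in the share at 3 copies gave 6 lower; all lower bins lay on chromosome 8. Counting only steps of 0.5 copies lowered the median breakpoints of disomic nuclei to 7. In the 2N+ gate the differences reversed at the start of chromosome 5 (-0.44 copies) and for chromosome 19 (-0.019). The shares of trisomic nuclei there were 100% for the first and inner parts of chromosome 2, 92.9% for the start of chromosome 8, 39.3% for chromosome 5 and 96.4% for chromosome 15. Those of disomic nuclei were 57.1% for the same parts of chromosome 2, the start of chromosome 8, and chromosomes 15 and 18, 28.6% for chromosome 5 and 100% for chromosome 19. In the 4N gate the difference was -2.75 copies at the start of chromosome 1 and 0.56 for chromosome 15, with shares of trisomic nuclei of 100% for the first part of chromosome 2, 54.5% for the part of chromosome 16 from 66290028 and for chromosome 15, and 36.4% for chromosome 18. Its 1 disomic nucleus gave 0% for the regions of chromosomes 2, 8, 16 and 18 and for chromosome 15, and 100% for chromosome 19. For the moves between gates the cause was not tested. The ratios carry no depth, so noise within a nucleus could not be judged. No paired analysis was possible because a nucleus number pairs nothing across groups and no model was fitted.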

Other observations

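A few large changes were each found in 1 nucleus of the 2N gate. Trisomic nucleus 12 had chromosome 17 at 4.81 copies, and trisomic nucleus 34 had chromosome 6 at 3.92 copies. Trisomic nucleus 31 had 3.83 copies of chromosome 8 beyond its start. Disomic nucleus 47 had 3.75 copies of chromosome 12, and disomic nucleus 35 had 3.88 copies of the last part of chromosome 16. No other nucleus of the gate reached 3.5 copies of these. Trisomic nucleus 29 had 2.82 copies of chromosome 14, and no other nucleus of the gate reached 2.5 copies of it.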
